A study of Mus musculus with 6 samples.

Results

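Basement membranes are thin sheets of extracellular matrix that lie under epithelia and around vessels, nerves, fat and muscle cells. The transcripts described here code for 10 of their secreted components: the collagen IV chains Col4a1, Col4a2 and Col4a5, the laminin chains Lamb1 and Lamc1, the linker proteins Nid1 and Nid2, the heparan sulfate proteoglycan perlecan (Hspg2), and the collagens Col15a1 and Col18a1. The members are every probe set whose platform annotation gives 1 of these symbols and no other, 20 of the 45037 probe sets that are not Affymetrix controls. A probe set is a group of short probes on the array that reports 1 transcript, and a gene can have several. All 10 genes had at least 1 probe set, and 18 of the 20 lay at or above the filter for tested probe sets, a mean scaled signal of 41.0.

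The study grew primary dermal fibroblasts out of the skin of B6 mouse pups aged 0 to 2 days per the sample labels, of mixed sex, and used the cells at passage 6 in serum-containing medium. The 3 Et1 cultures received synthetic endothelin 1 (Et1) at 100 nM for 24 hours, and the 3 control cultures nothing. Et1 is a short peptide of the human and porcine sequence that signals through G-protein-coupled receptors. RNA of each culture was read on 1 Affymetrix Mouse430_2 array. The labels call the 3 samples of a group biological replicates without naming the pups, so the p-values measure the spread between these 6 arrays, and 3 arrays per group limit the precision. Explant cultures hold whatever cell types grew out of the skin, and in such bulk RNA fewer cells of a type and less of a transcript per cell cannot be told apart.

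Collagen IV chains assemble as trimers into a covalent network, and laminins, trimers of an alpha, a beta and a gamma chain, polymerise into a second network at the cell surface. Nidogens and perlecan bridge the networks, and collagens XV and XVIII, whose C-terminal fragments include endostatin, sit at the face towards the interstitial matrix. Fibroblasts of the dermis are a known source of collagen IV, nidogen and perlecan for the basement membrane under the epidermis.

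Promoter stretches are shown for 5 members described in the comparisons below: Hspg2, Nid1, Col4a1 and Col4a2, which had probe sets low on the same arrays, and Lamb1, which did not. Col15a1, also low on those arrays, is not shown because its window lies within the annotated gene. RefSeq windows (build GRCm38.p6, 250 bases before to 50 after a start) were found for 8 of the 10 genes, all but Lamc1 and Nid2. Capitals mark the GC box GGGCGG on either strand, the letters bound by factors of the Sp family. Over the 250 bases before the start, 6 of the 9 member windows held a GC box, against 32.7% of the 32851 windows of that length in the table. For Hspg2 (chr4:137468553-137468750, plus strand), Nid1 (chr13:13437352-13437601, plus strand) and Lamb1 (chr12:31265043-31265145, plus strand) the part of the window before the outermost annotated start of the gene is given. Col4a1 and Col4a2 lie head to head on opposite strands, and for them the 22 bases from one annotated start to the other (chr8:11312805-11312826), the first transcribed bases of both, are given on the strand of each gene. Their windows overlapped by 78 bases.
Hspg2: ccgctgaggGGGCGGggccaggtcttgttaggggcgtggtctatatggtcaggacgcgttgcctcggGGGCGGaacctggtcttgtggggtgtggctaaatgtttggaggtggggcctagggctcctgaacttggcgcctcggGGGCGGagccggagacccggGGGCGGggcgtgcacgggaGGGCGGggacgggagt
Nid1: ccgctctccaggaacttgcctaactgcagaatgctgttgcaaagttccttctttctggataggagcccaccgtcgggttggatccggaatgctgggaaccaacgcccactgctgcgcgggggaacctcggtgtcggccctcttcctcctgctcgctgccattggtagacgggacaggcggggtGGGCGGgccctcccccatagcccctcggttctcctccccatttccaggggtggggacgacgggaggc
Lamb1: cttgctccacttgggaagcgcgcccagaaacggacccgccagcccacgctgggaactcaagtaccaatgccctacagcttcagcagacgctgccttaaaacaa
Col4a2: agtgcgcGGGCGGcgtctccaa
Col4a1: ttggagacgCCGCCCgcgcact
Over the full 250 bases before the start, the windows held 5 GC boxes for Hspg2, 2 for Lamb1, 2 for Col4a2, 1 for Nid1, 1 for Col4a5, 3 and 0 for the windows of Col18a1, 0 for Col4a1 and 0 for Col15a1. Except for Nid1 the printed stretches are shorter than these windows, so the Lamb1 stretch shows 0. The stretch at the Col4a1 and Col4a2 starts shows 1 that lies outside the upstream bases of both genes. Of the genes with a window and a call lower on the same arrays, Hspg2, Col4a2 and Nid1 had a GC box in these bases. Col4a1 and Col15a1 had 0. Among the genes with a window and no such call, Lamb1, Col4a5 and 1 window of Col18a1 had a GC box. Col18a1 had a probe set (1418237_s_at) that also read low on each of those arrays but was not called. A match is a description of letters and shows no binding.

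The deposited signals had trimmed means from 91.7 to 179, and all values below were scaled to a common 139. The arrays also fell into 2 sets, named the Bacillus sets after the control probe sets for Bacillus transcripts that separate them, which laboratories can spike into RNA as controls; the labels do not say if this was done. Control 1, control 2 and Et1 2 form the low set, with mean log2 Bacillus signals from 3.52 to 3.82. Control 3, Et1 1 and Et1 3 form the high set, from 4.99 to 6.16. An 18S ribosomal RNA probe set split the same way, reading 4.83 to 19.7 on the low arrays and 85.4 to 149 on the high ones. The ratio of the 3' to the 5' actin probe set, a measure of RNA integrity, ran from 1.15 to 1.23 over all 6 arrays. The high set holds 2 of the 3 Et1 arrays and 1 of the 3 control arrays, so a difference between the sets enters an Et1 comparison made without it. Each Et1 comparison is therefore given from limma without a block and with the set as a block.

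Among the components, Nid2 was lower on each Et1 array, at about 0.465 times its control level, where 8.11% of all tested probe sets were lower without overlap. Of the 3 tested probe sets of Lamb1, 2 read higher on each Et1 array, where 9.47% of all did, and neither passed the threshold. Hspg2, Col4a1, Col4a2, Lamc1, Col15a1 and 1 probe set of Nid1 differed more between the Bacillus sets than between the groups. Against the blocked Et1 difference this held for 13 of the 18 member probe sets and for 59.5% of all tested ones. Without a block limma called 0 of the 18 tested member probe sets at an adjusted p of 0.05, where 0.346% of all 22519 tested probe sets were called (0.249% lower, 0.0977% higher), and at an unadjusted p under 0.05 there were 4 of 18, where the share of all was 12.3%. With the set as a block it called 2, both lower (Nid2 and 1 probe set of Col4a1), where 3.85% of all were called, 2.47% lower and 1.39% higher. That blocked fit called 312 probe sets higher and 556 lower over all, and 132 and 392 with median centring.

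**Figure D1:**
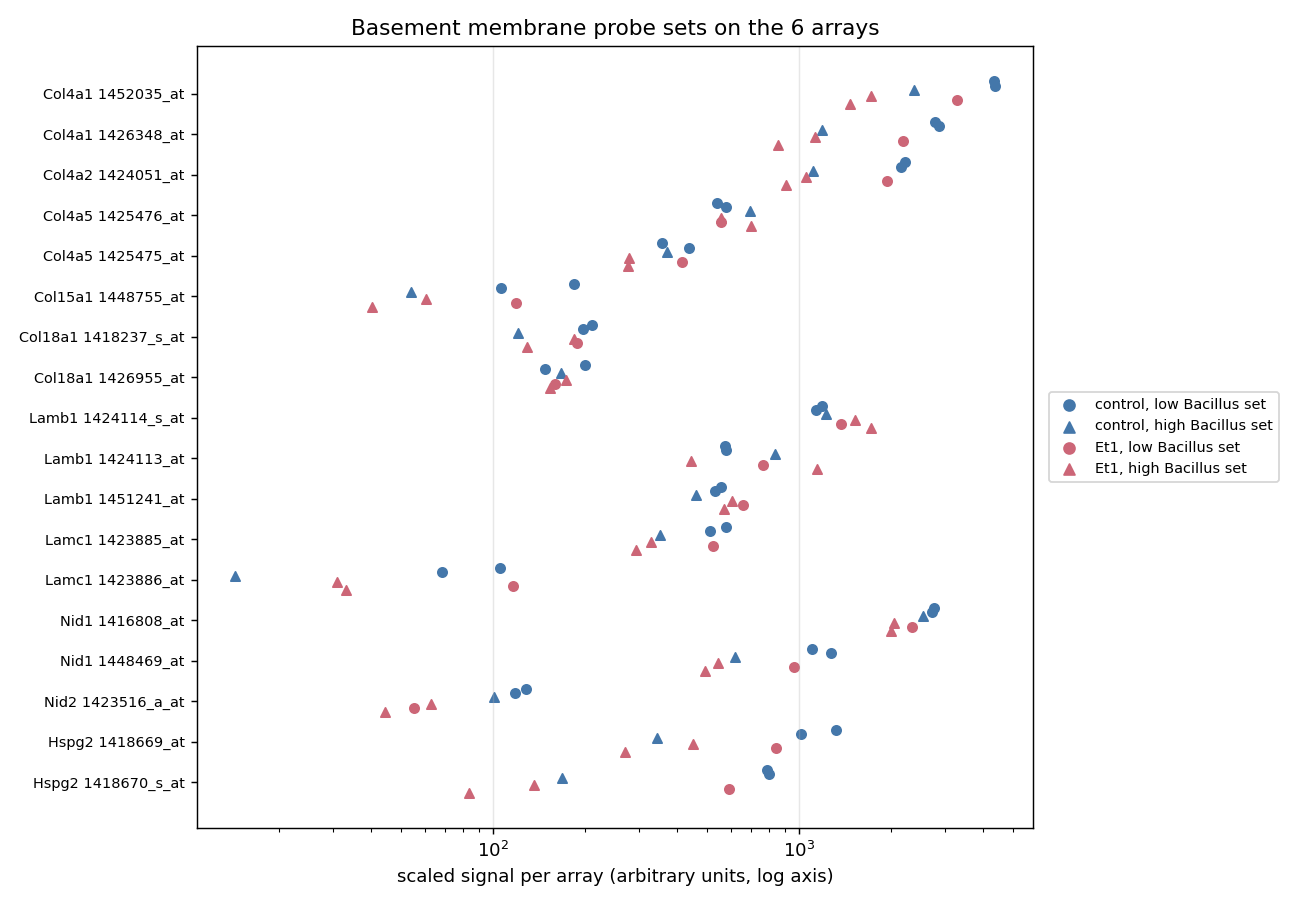
Scaled signal (arbitrary units, log axis) of the 18 tested probe sets of the basement membrane genes, 1 point per array, blue for control and red for Et1, circles for the low and triangles for the high Bacillus set. For Hspg2, Col4a1, Col4a2, Lamc1, Col15a1 and 1 probe set each of Nid1 and Col18a1 the triangles lie to the left of all circles. For Nid2 the red points lie to the left of all blue ones.

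Col4a1 and Col4a2 encode the 2 chains of the collagen IV trimer found in most basement membranes. The first probe set of Col4a1 (1452035_at) read 4324, 4386 and 2379 on control replicates 1 to 3 and 1719, 3296 and 1473 on Et1 replicates 1 to 3. The groups overlapped, since Et1 replicate 2 stood above control replicate 3, and each of the 3 arrays of the high set lay below each of the low set. Without a block its log2 fold change was -0.81 (SE 0.33, limma adjusted p = 0.375). With the set as a block it fell by 0.49 on the log2 scale (SE 0.11, adjusted p = 0.0396), and the Et1 arrays stood lower within both sets, at -0.40 in the low and -0.58 in the high set. The call was kept without Et1 replicate 1 (adjusted p = 0.0159) or Et1 replicate 3 (0.0250). It was lost without control replicate 1 (0.101), control replicate 2 (0.124), control replicate 3 (0.422) or Et1 replicate 2 (0.271), with no filter (0.0845) and with median centring (0.146).

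The other probe set of Col4a1 (1426348_at) read 2781, 2875 and 1188 in control and 1127, 2193 and 854.5 in Et1 cultures. It gave -0.32 with the block (SE 0.12, adjusted p = 0.200). The single probe set of Col4a2 (1424051_at) read 2221, 2162 and 1110.3 in control and 1056, 1945 and 905 in Et1 cultures. Its order over the arrays was close to that of Col4a1, the gene that shares its promoter region: the low set read 1945 to 2221 and the high set 905 to 1110.3. Its blocked Et1 difference was -0.18 (95% interval -0.41 to 0.05), with -0.17 and -0.18 within the low and high sets, and did not pass the threshold.

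Col4a5, a chain of the collagen IV network with alpha 3, 4 and 6 chains, did not follow them. Its first probe set (1425476_at) read 541, 577 and 693 in control and 557, 558 and 695 in Et1 cultures, with the highest values on the replicates numbered 3. The blocked difference was -0.08 (95% interval -0.35 to 0.19). The other probe set (1425475_at) read 357, 438 and 372 in control and 279, 415 and 277 in Et1 cultures. Its blocked difference was -0.18 (95% interval -0.50 to 0.15), and the high minus low difference of -0.33 missed the threshold (adjusted p = 0.151).

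Lamb1 encodes the beta 1 chain, and its first probe set (1424114_s_at) read 1187, 1137 and 1229 in control and 1529.8, 1373 and 1716 in Et1 cultures. The groups did not overlap, and the Et1 arrays were higher within both sets, by 0.24 and 0.40 on the log2 scale. The log2 fold change was 0.37 without a block (SE 0.14, adjusted p = 0.320) and 0.32 with it (SE 0.10, adjusted p = 0.130). A second probe set (1451241_at), read at 556, 532 and 460.5 in control and 603, 656 and 571 in Et1 cultures, also did not overlap between the groups, with a blocked difference of 0.31 (95% interval 0.08 to 0.54, adjusted p = 0.134). The third (1424113_at) read 575, 576 and 838 in control and 443, 765 and 1146 in Et1 cultures. Here the groups overlapped widely, and the blocked difference of 0.09 had an interval from -0.59 to 0.77. Without Et1 replicate 1 this probe set was called higher in the blocked fit (log2 0.43, adjusted p = 0.0247), and without Et1 replicate 2 or 3 the difference was -0.24 or -0.16. The last probe set of Lamb1 (1446180_at) lay below the filter, at 7.85 to 20.1 over all arrays.

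Lamc1 encodes the gamma 1 chain, the partner of Lamb1 in many laminins. Its first probe set (1423885_at) read 578, 512 and 351 in control and 329, 523 and 294 in Et1 cultures, and the other (1423886_at) read 106, 68.4 and 14.4 and 31.0, 116 and 33.3. On both, the high set lay below the low set, and the control and Et1 groups overlapped. The blocked Et1 differences were -0.12 (95% interval -0.37 to 0.14) and 0.80 (0.04 to 1.56, adjusted p = 0.245), of opposite sign. The second probe set reached signals below the filter value on 3 arrays. Without a block its log2 fold change was 0.07, and it was -0.03 with quantile normalization and with 50 added to each signal.

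Nidogens bind laminin gamma 1 and collagen IV. Nid2 (1423516_a_at) read 128, 119 and 101 in control and 63.0, 55.3 and 44.6 in Et1 cultures, 116 ± 13.9 against 54.3 ± 9.21 (SD, n = 3). Each Et1 array was below each control array, as for 8.11% of all tested probe sets, and the differences within the low and high sets were -1.16 and -0.93. The log2 fold change was -1.10 without a block (SE 0.22, adjusted p = 0.0892) and -1.05 with it (SE 0.23, adjusted p = 0.0362). With the block the call was kept without Et1 replicate 1 (adjusted p = 0.00786). It was lost without control replicate 1 (0.119), control replicate 2 (0.109), control replicate 3 (0.240), Et1 replicate 2 (0.379) or Et1 replicate 3 (0.0525), and with no filter (0.0818), while the log2 fold change stayed between -1.17 and -0.93 in these fits. With 50 added to each signal, which shrinks changes of dim probe sets, it was -0.63. Between the Bacillus sets Nid2 differed by -0.17 (95% interval -0.68 to 0.34).

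Nid1 was lower on average in the Et1 cultures, but its probe sets differed in how they followed the Bacillus sets. The first one (1416808_at) read 2765, 2718 and 2550.2 in control and 2047, 2337 and 1998 in Et1 cultures. These groups did not overlap, and the log2 difference was -0.33 without a block (SE 0.12, adjusted p = 0.325) and -0.28 with it (SE 0.10, adjusted p = 0.157). The other (1448469_at) read 1101, 1271 and 619 in control and 543, 968 and 493 in Et1 cultures, so that all 3 arrays of the high set were low. Its blocked Et1 difference was -0.27 (SE 0.11, adjusted p = 0.205), near that of the first. High minus low, the first differed by -0.16 (adjusted p = 0.318) and the second by -0.92 (adjusted p = 0.000638). The difference between these probe sets of 1 gene was not tested. The last Nid1 probe set (1441519_at) lay below the filter, at 4.33 to 17.5.

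Perlecan, the large heparan sulfate proteoglycan encoded by Hspg2, stood furthest apart between the Bacillus sets. The probe set 1418670_s_at read 785, 798 and 168 in control and 137, 592 and 83.6 in Et1 cultures. The 3 arrays of the low set were at 592 or more and those of the high set at 168 or less, while the control and Et1 groups overlapped. The second probe set (1418669_at) read 1321, 1017 and 345 in control and 451, 841 and 270.1 in Et1 cultures and had the same split. Without a block the log2 fold changes with Et1 were -1.32 (SE 0.78, adjusted p = 0.542) and -0.73 (SE 0.53, adjusted p = 0.622). With the block they were -0.54 (SE 0.18, adjusted p = 0.149) and -0.22 (SE 0.20, adjusted p = 0.633). The second probe set stood at 0.02 within the high set, against -0.46 within the low set. Without Et1 replicate 1 the first was called in the blocked fit (adjusted p = 0.0199).

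Collagens XV and XVIII carry chondroitin or heparan sulfate chains and release antiangiogenic fragments. Col15a1 (1448755_at) read 185, 106 and 54.2 in control and 60.7, 119 and 40.3 in Et1 cultures, and again the groups overlapped while the sets did not. Its blocked Et1 difference was -0.18 (95% interval -0.80 to 0.44). The probe sets of Col18a1 varied less. One (1418237_s_at) read 211, 198 and 120.5 in control and 184, 188 and 129 in Et1 cultures, and the other (1426955_at) read 200, 149 and 167 in control and 174, 160.0 and 154 in Et1 cultures. Their blocked Et1 differences were 0.12 (95% interval -0.29 to 0.53) and -0.07 (-0.43 to 0.30). On 1418237_s_at each high-set array read below each low-set array. Its high minus low difference of -0.53 (95% interval -0.94 to -0.11) missed the threshold (limma adjusted p = 0.0809).

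**Figure D2:**
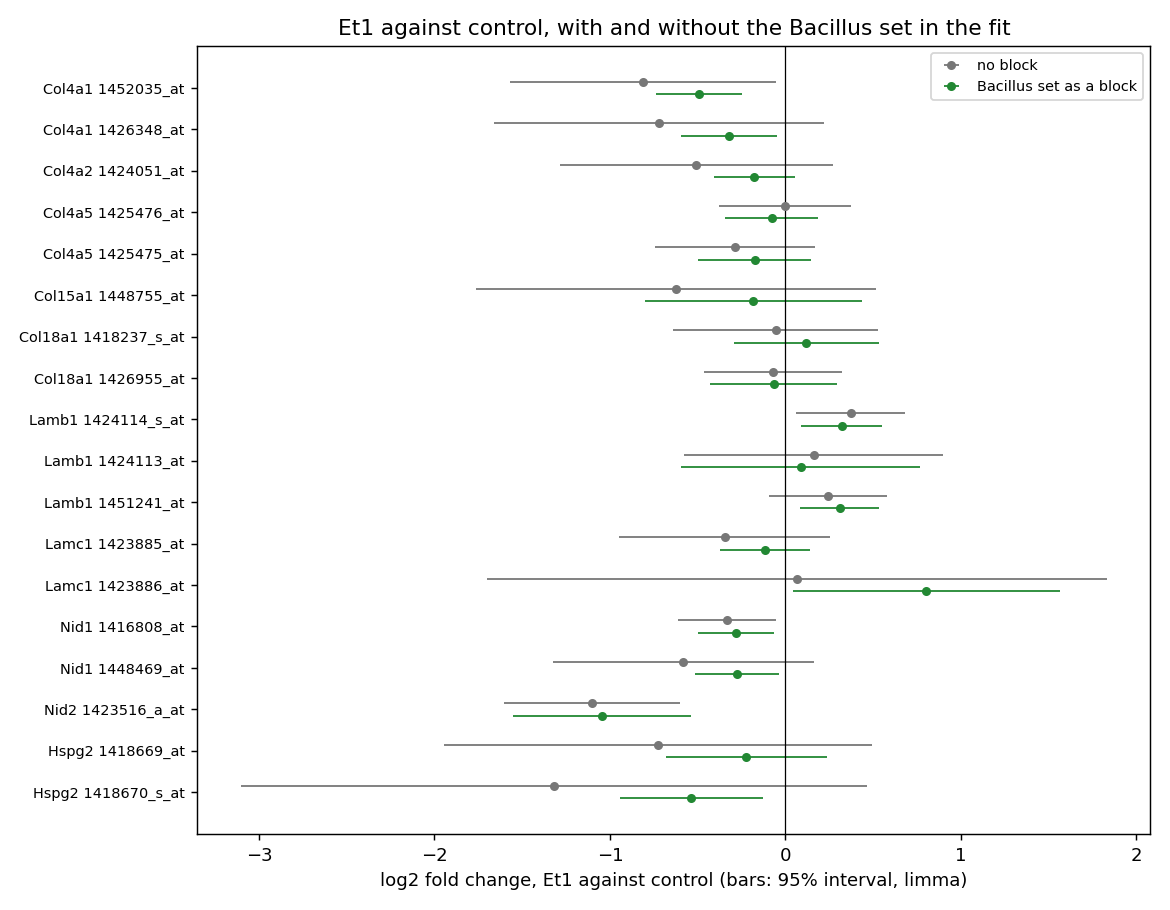
Log2 fold change of each tested probe set, Et1 against control, from limma without a block (grey) and with a block for the Bacillus set (green), with 95% intervals that are not adjusted for multiple tests. With the block the intervals are narrower in most cases, the values of Hspg2, Col4a1 and Col15a1 move towards 0, and those of Nid2 stay near -1.

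Over the 18 probe sets the median log2 fold change with Et1 was -0.34 without a block and -0.18 with it, where the median over all tested probe sets was 0.03 in both fits. Within the low and high sets the member medians were -0.14 and -0.18. Without a block 14 of the 18 were below 0, and with it 13. In the low and the high set alike 11 were lower and 3 were higher, a sign shared by 14 of 18, where 64.5% of all tested probe sets shared theirs. The groups did not overlap for 2 probe sets that were lower (Nid2 and Nid1) and 2 that were higher (both of Lamb1), where 8.11% and 9.47% of all did so, 17.6% together. Leaving out control replicate 3 moved the unblocked median to -0.67; leaving out Et1 replicate 2 gave -0.57, and Et1 replicate 3 gave -0.22.

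The comparison of the high with the low Bacillus set was made because so many members were low on the same arrays, a pattern seen in the data, and it is a comparison of arrays and not of conditions. With the group in the fit, limma called 9 of the 18 member probe sets lower in the high set and 0 higher, where 16.7% of all tested probe sets were called, 9.99% lower and 6.71% higher. These 9 belong to 6 genes: Hspg2, Col4a1 and Lamc1 with both probe sets each, and Col4a2, Col15a1 and Nid1 with 1 each. The largest difference was that of Hspg2 1418670_s_at at -2.35 (SE 0.18, adjusted p = 7.74e-05), a signal 5.11 times higher in the low set. The 2 sets did not overlap for 10 member probe sets, all lower in the high set, where 16.6% of all tested probe sets were lower and 16.3% higher in that way. Among these 10, Lamc1 1423886_at passed the filter only through the low set, so its lack of overlap is no support for a difference. The share of 16.6% still includes probe sets of that kind.

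The other called values were spread from -0.69 to -2.21. Lamc1 stood at -2.21 for 1423886_at and -0.69 for 1423885_at (adjusted p = 0.00249 and 0.00357) and the second probe set of Hspg2 at -1.51 (adjusted p = 0.00132). Col4a1 stood at -1.21 and -0.96 (adjusted p = 0.000342 and 0.000593), Col4a2 at -0.99 (adjusted p = 0.000386) and Col15a1 at -1.32 (adjusted p = 0.0110). Lamc1 1423886_at passed the filter only through the low set, since all 3 arrays of the high set lay below 41.0. Its call is therefore no support for a difference, and 8 calls remain without it. The share of 9.99% over all tested probe sets was not cut in that way. As the pattern prompted the comparison, the calls describe these arrays and are no independent support for it. With 50 added to each signal Lamc1 1423886_at stood at -1.05 and Col15a1 at -0.82. The chains of the main collagen IV trimer had like differences between the sets, 2.31 and 1.95 times for the probe sets of Col4a1 and 1.98 times for Col4a2. No probe set of Lamb1, Col4a5, Col18a1 or Nid2 passed, and the 3 of Lamb1 lay at 0.16, 0.22 and -0.20. Without Et1 replicate 1, Lamb1 1424113_at (0.56, adjusted p = 0.00268) and Col4a5 1425476_at (0.31, adjusted p = 0.0449) were called higher in the high set and Col18a1 1418237_s_at lower (-0.67, adjusted p = 0.00792). Within each group the sets were also compared, with control 3 as the only high-set control and Et1 2 as the only low-set Et1 array. Hspg2 1418670_s_at stood at -2.24 among the control and -2.47 among the Et1 arrays, and Col4a2 at -0.98 and -0.99. These values were not tested. Without control replicate 3 the calls of Hspg2 1418669_at (adjusted p = 0.0546), Lamc1 1423885_at (0.0567) and Col15a1 (0.145) were lost, and without Et1 replicate 2 those of Lamc1 1423885_at (0.0908) and Col15a1 (0.124). Over all probe sets 1511 were called higher and 2249 lower, and with median centring 443 and 1972.

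**Figure D3:**
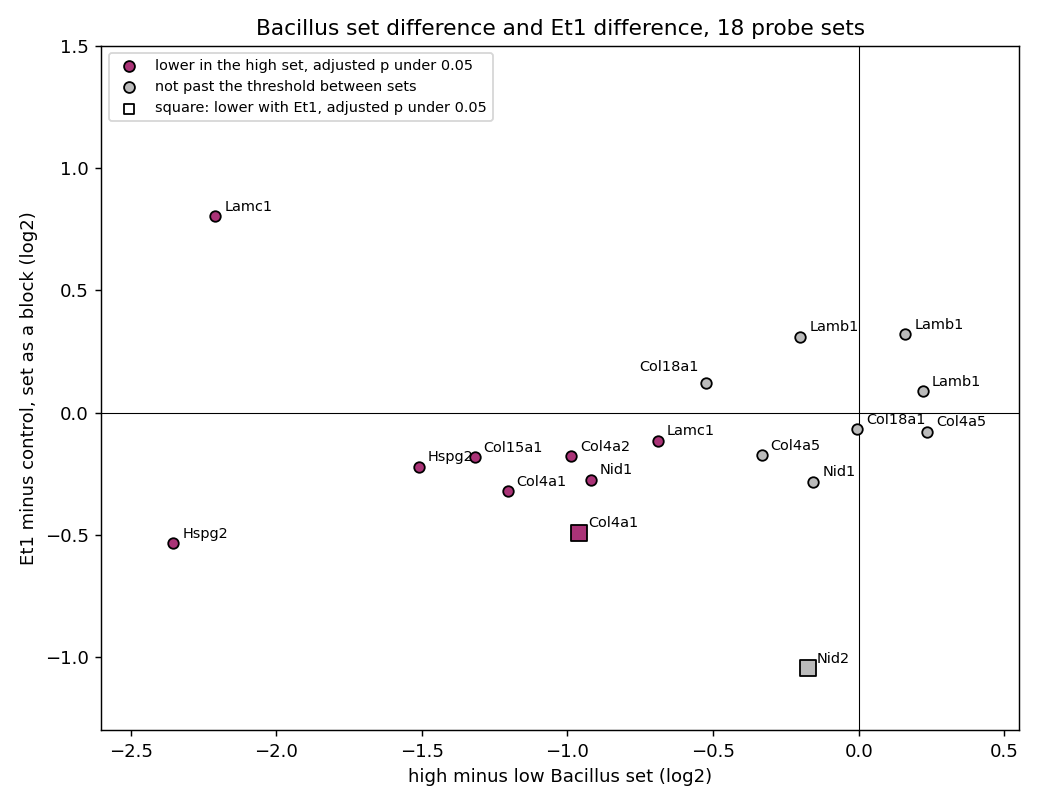
Each point is a tested probe set, with the high minus low difference between the Bacillus sets on the x axis and the Et1 minus control difference with the set as a block on the y axis, both log2 from 1 fit; squares mark an Et1 call. The probe sets called between the sets (purple) reach from -0.69 to -2.35, and Nid2, at -0.17 between the sets, is lowest with Et1 at -1.05.

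For 13 of the 18 member probe sets the difference between the Bacillus sets was larger in size than the blocked Et1 difference, as it was for 59.5% of all tested probe sets. The exceptions were Nid2, Nid1 1416808_at, both non-overlapping probe sets of Lamb1, and Col18a1 1426955_at.

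Other basement membrane genes were taken from a list of 33, of which 30 had a single-symbol probe set and 18 a tested one. For each gene the brightest tested probe set stands. Without a block 0 of these 18 passed. With the set as a block 1, Npnt, was lower, where 2.47% of all tested probe sets were. Npnt encodes nephronectin, a ligand of integrin alpha 8 beta 1. It read 295, 334 and 251 in control and 123, 206 and 120.4 in Et1 cultures, without overlap, and fell by 0.83 on the log2 scale with the block (adjusted p = 0.0159). That call was lost without control replicate 2 (adjusted p = 0.0571), control replicate 3 (0.291) or Et1 replicate 2 (0.111). Ntn4, a netrin that binds laminin gamma 1, stood at -0.68 with the block (adjusted p = 0.117). The list's median was -0.06 with the block.

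Of these 18 genes, 5 were lower in the high set, namely Tinagl1, Fbln1, Npnt, Col7a1 and Fbln2, and 0 were higher. Over all tested probe sets 9.99% were lower and 6.71% higher. Counted over the 29 tested probe sets of the list, 8 were lower in the high set and 0 higher. Tinagl1, a secreted matricellular protein, had the largest difference, -1.46 (adjusted p = 0.000407), and read 389, 421 and 179 in control and 157, 575 and 189.7 in Et1 cultures. The fibulins Fbln1 and Fbln2, which bind nidogen and perlecan, stood at -0.82 and -0.49, and Col7a1, the collagen of anchoring fibrils, at -0.51. The other laminin chains tested, Lama2, Lama3, Lama4, Lama5, Lamb2 and Lamb3, did not pass in either comparison, nor did Agrn and Sparc. The alpha chains Lama2, Lama3, Lama4 and Lama5 had blocked Et1 differences of -0.23, 0.17, -0.07 and -0.02.

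Of 17 tested receptors and surface partners, 0 passed without a block and 1 with it, where 2.47% of all tested probe sets were called lower. The gene was Sdc4. The product, syndecan 4, is a heparan sulfate proteoglycan of focal adhesions, and Sdc4 fell by 1.00 on the log2 scale (adjusted p = 0.0281), from 135 ± 49.6 in control to 53.5 ± 29.5 in Et1 cultures (SD, n = 3). That call was lost without control replicate 1 (adjusted p = 0.113), control replicate 2 (0.0994), control replicate 3 (0.308) or Et1 replicate 2 (0.253), and with no filter (0.0623). With 50 added it was -0.60, and 2 of the 3 Et1 arrays read below the filter value. The collagen receptor Ddr1 stood at -0.48 with the block (adjusted p = 0.0703) and Itga1, the alpha subunit of a collagen IV-binding integrin, at -0.79 (adjusted p = 0.167). Between the sets Sdc4 and Dag1, the laminin receptor dystroglycan, were lower in the high set, where 9.99% of all tested probe sets were. Itga6, the alpha subunit of laminin-binding integrins, was higher, by 0.63 (adjusted p = 0.0102), as were 6.71% of all. Counted over the 42 tested probe sets of the list, 11 were lower in the high set and 1 was higher.

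Among 16 tested enzymes and chaperones that build these proteins, 0 passed for Et1 in either fit by the brightest probe set. P4ha1 and P4hb, subunits of collagen prolyl 4-hydroxylase, stood at -0.56 and -0.41 with the block (adjusted p = 0.0699 and 0.0956). P4ha1 fell by 0.62 in another probe set (adjusted p = 0.0246). In the high set 7 of the 16 were lower and 0 higher, where 9.99% and 6.71% of all tested probe sets were. Among the 7 were P4ha1, the collagen lysyl hydroxylase Plod1 and the heparan sulfate enzymes Ext1 and Hs6st1, the last at -1.08. Counted over the 24 tested probe sets of the list, 11 were lower in the high set and 0 higher.

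Of 13 tested proteases and inhibitors, 0 passed without a block and 1 with it, where 2.47% of all tested probe sets were called lower. This was Adamts1, a secreted protease that cleaves large proteoglycans, which fell by 0.77 (adjusted p = 0.00993). It went from 369 ± 20.5 to 214 ± 14.7 (SD, n = 3) and differed by -0.05 between the sets. Without control replicate 3 or Et1 replicate 2 its adjusted p was 0.133 and 0.225. Mmp2 and Mmp14, a gelatinase that degrades collagen IV and its membrane-bound activator, fell by 0.54 and 0.50 in a dimmer probe set each (adjusted p = 0.0382 and 0.0461). Their brightest probe sets stood at -0.15 and -0.41 (adjusted p = 0.594 and 0.0516), and that of Mmp2 at 0.00 within the high set. Mmp9 read higher on each Et1 array, as did 9.47% of all tested probe sets, at 135 ± 2.72 in control and 179 ± 7.05 in Et1 cultures (SD, n = 3). Its blocked difference was 0.41 (limma adjusted p = 0.153). With the block 8 of the 13 genes stood below 0. Bmp1, Timp3 and Mmp14 were lower in the high set, with Bmp1 at -0.99, where 9.99% of all tested probe sets were lower. Counted over the 25 tested probe sets of the list, 11 were lower in the high set and 0 higher. The dimmer Mmp2 probe set was among the lower ones, at -0.49 (adjusted p = 0.0219).

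**Figure D4:**
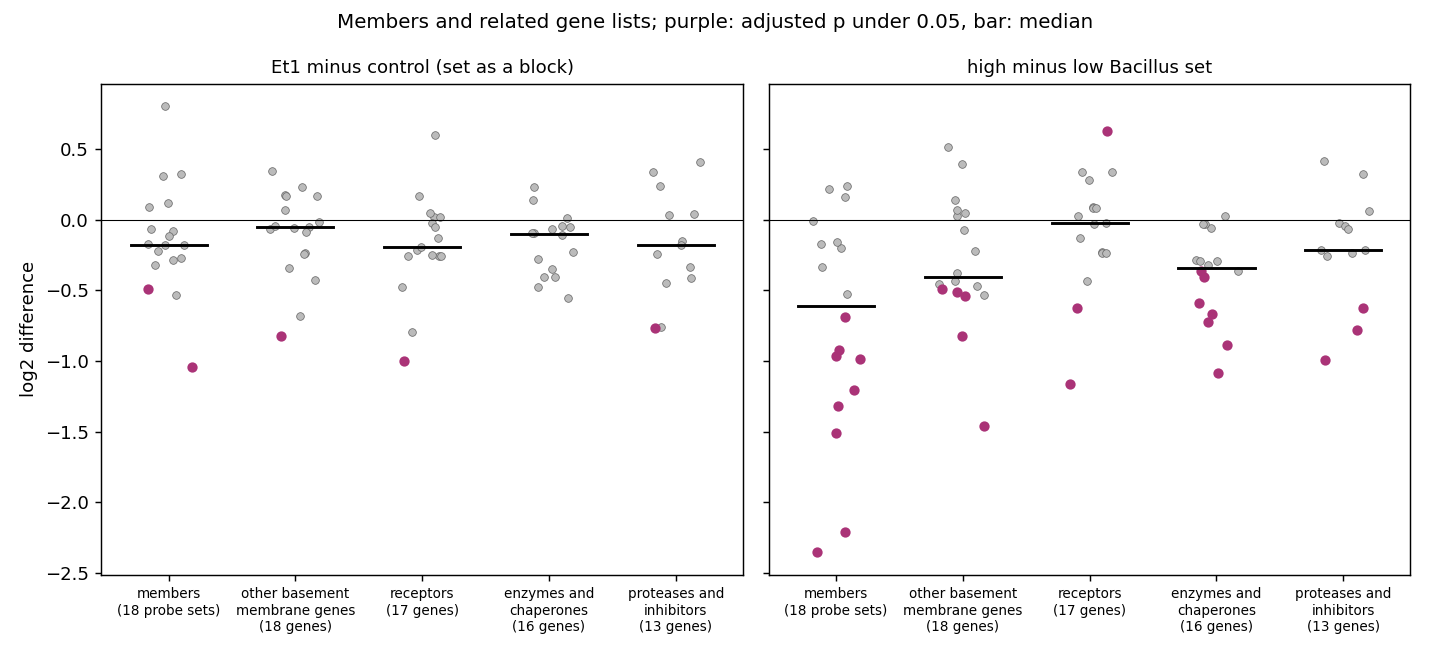
Log2 difference of the 18 member probe sets and of the brightest tested probe set of each gene in 4 related lists, for Et1 minus control with a block for the Bacillus set (left) and for high minus low Bacillus set (right). Purple marks an adjusted p under 0.05 and bars mark medians; the member median is -0.18 on the left and -0.61 on the right.

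The labelled cell type was checked on markers. Of 8 fibroblast markers 7 were tested, and Col1a1, Col1a2, Col3a1, Thy1 and Vim read 902 or more on each array. Pdgfra read 201 to 444, Dcn 644 to 1109 and Lum, below the filter, 21.8 to 51.7. Summed over the list the signal ran from 25805 to 32544 on low-set arrays and from 13935 to 20881 on high-set arrays, and Col1a1, Col3a1 and Thy1 were called lower there. The other 4 tested markers did not pass, with Pdgfra at 0.38, Dcn at -0.06, Vim at -0.22 and Col1a2 at -0.50. Of 7 markers of mural cells, contractile cells of the vessel wall that make collagen IV, 5 were tested. The list summed to 813 to 1257 on low-set arrays and 489 to 647 on high-set arrays, most of it Mcam and Cspg4. Both were called lower in the high set, and Abcc9 and Kcnj8 lay below the filter. Notch3 at -0.56, Myh11 at -0.25 and Rgs5 at 0.06 between the sets did not pass. For Et1 no tested marker of either list passed without a block. With the block, Mcam was called lower, at -0.88 (adjusted p = 0.00483), as were Col3a1 and Thy1, where 2.47% of all tested probe sets were. The other mural markers tested did not pass, with Cspg4 at 0.04, Rgs5 at 0.05, Notch3 at -0.36 and Myh11 at -0.65. Neither did the other fibroblast markers, with Vim at 0.10, Col1a1 at -0.30, Col1a2 at -0.27, Pdgfra at -0.63 and Dcn at -0.24. The part of either list in the differences of the members was not tested.

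The 9 endothelial markers summed to 255 to 274 in control and 298 to 362 in Et1 cultures, with 3 of the 9 tested. The tested ones were dim, with Egfl7 at 80.4 to 128, Kdr at 19.5 to 83.9 and Cdh5 at 20.0 to 61.2 over all arrays. Of the others Pecam1 read 12.7 or less and Tie1 4.81 or less, and Tek read 3.28 to 9.10 in control and 18.3 to 30.3 in Et1 cultures, below the filter. The part of endothelial transcripts in the differences of the members was not tested. Sums for the 5 skeletal muscle markers were 2323 to 2636 in control and 2781 to 3038 in Et1 cultures, most of it Acta1. The Schwann cell, adipocyte, keratinocyte, macrophage and melanocyte markers summed to between 50.4 and 447 on any array. No gene of these 7 lists passed the threshold in any of the 3 comparisons.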

How the data were processed

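RNA of 6 cultures was measured on Affymetrix Mouse430_2 arrays. The table deposited by the authors holds intensity on a linear scale, with MAS5 named in the submitters' processing notes. Which version and target scaling were used is not given in the sources used here. All 6 experiment files held 1 distinct text of scanner and fluidics settings. Each array was scaled to a common trimmed mean (2% off each end), 4 zero values were set to the array's smallest positive value, and log2 was taken with no pseudocount. Of 45037 probe sets, 22519 with a mean scaled signal at or above the median were tested with limma 3.58.1 in R 4.3.3 (lmFit, eBayes with trend), Benjamini-Hochberg adjusted over all, at 0.05. The main fit had no block. The Bacillus set was split at the largest gap in mean log2 signal of 24 Bacillus control probe sets. Names came from the platform annotation and GRCm38.p6 gene identifiers. Members, lists and this split were chosen with earlier results of these data known, and from each related list up to 5 genes by smallest p were eligible to be named, plus those called; other names were chosen after their values were seen. Alternatives were 2 other scalings, filters, an offset of 50, no trend, fewer probe set types, arrays left out and blocks. Fits were tested on simulated data.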

Additional observations from a re-analysis of the deposited data

How the results depend on the processing

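Under every setting without a block the count of member probe sets called stayed at 0, and the member median stayed below 0 in all fits run, from -0.67 to -0.11; the median of 1 value per gene was -0.43, and -0.48 with the mean of a gene's probe sets. Over all probe sets the 78 calls became 43 with median centring, 40 with no filter, 7 with no intensity trend and 4 to 229 with an array left out. Blocking on the Bacillus set gave 868 calls (937 with quantile normalization, 972 with 50 added, 524 with median centring, 412 with no filter, and, leaving out control 1, 2 or 3, 421, 419 or 34, and Et1 1, 2 or 3, 1687, 23 or 769), and 2 members were called (2, 2, 1 and 0 under these settings, and 0 to 5 with an array left out). The high and low sets gave 3760 calls (2415 with median centring, 2139 without control 2, 804 without control 3, 796 without Et1 2 and up to 5172 without another array), and 6 to 12 member calls with an array left out. With the replicate number as a block 567 were called, and 1 member, Nid2 (adjusted p = 0.0376). Same-numbered arrays deviated together for numbers 2 and 3 (r = 0.44 and 0.45 across probe sets) and not for number 1 (r = -0.12), so the numbers were not taken to pair the cultures; Et1 replicate 1 correlated best with control replicate 3. Fits that join the Bacillus block with another choice, and the comparison of the sets, were added after seeing the data. The cause of these changes was not tested. The spread between 3 arrays per group, and dim signals of Nid2, Col15a1 and Lamc1 1423886_at, limit what can be seen.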
